A study of Mus musculus with 17 samples.

Results

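The WT1 binding sites around Vegfa, Bmp7 and Sulf1, genes for signals that podocytes send to their surroundings, were followed through a mouse study of podocyte injury. Podocytes are the epithelial cells that wrap the capillaries of the glomerulus, the kidney's filter, and WT1 is a zinc-finger transcription factor that they depend on. Binding was measured by chromatin immunoprecipitation with sequencing (ChIP-seq), in which fragments pulled down with a WT1 antibody pile up into peaks. All peaks whose summit fell in 1 of 3 windows of the mm9 genome were taken, whatever their strength. The windows spanned 220 kb at Vegfa, 250 kb at Bmp7 and 300 kb at Sulf1. Their outermost peaks ran from 46068053 to 46267053 on chromosome 17 for Vegfa, from 172611876 to 172845693 on chromosome 2 for Bmp7 and from 12634773 to 12868404 on chromosome 1 for Sulf1. The windows held 177 of the 107761 peaks of the series, with 59 for Vegfa, 69 for Bmp7 and 49 for Sulf1.

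The mice were 7 to 8 weeks old and wild type per the labels, and injury was induced by an injection of ADR (adriamycin, a drug toxic to podocytes). Purified podocytes came from mTmG-Nphs2cre mice, in which a recombinase under the podocin promoter marks podocytes. They gave 3 libraries after PBS (vehicle, with no day in the labels), 2 at day 9 after ADR and 2 at day 14. Isolated glomeruli of BALB/cJ mice, which also hold endothelial and mesangial cells, gave 4 ADR libraries and 4 PBS libraries, with no day in the labels. A further 2 libraries were glomerular inputs. For the reporter strain the protocol counts 3 independent experiments, but only the PBS group has that many libraries here. Each of the 5 immunoprecipitated groups is represented by 1 peak list, so no value below has a replicate error and no difference between groups was tested.

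VEGF-A, the product of Vegfa, is secreted by podocytes and acts on receptors such as Kdr on the glomerular endothelium. BMP7 is a ligand of the TGF-beta superfamily that signals through BMP receptors and Smad proteins, and it is known from nephron formation and from protection of the injured kidney. Sulf1 encodes an extracellular sulfatase that removes sulfate groups from heparan sulfate, the sugar chains that hold VEGF-A, BMPs and other ligands near cells. WT1 recognises G-rich DNA, and its zinc fingers are known to bind sites that contain GTGGGNG.

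Of the 3 genes, Vegfa had an entry in the RefSeq promoter table (GRCm38.p6, the build after mm9), and 1 of its 2 listed starts is shown because WT1 binding around this gene is described first. The 250 bases before that start, on the minus strand of chromosome 17 from 46032378 to 46032627, are 59.2% G or C, and the 2 capital stretches mark GGGNGGG.
Vegfa promoter: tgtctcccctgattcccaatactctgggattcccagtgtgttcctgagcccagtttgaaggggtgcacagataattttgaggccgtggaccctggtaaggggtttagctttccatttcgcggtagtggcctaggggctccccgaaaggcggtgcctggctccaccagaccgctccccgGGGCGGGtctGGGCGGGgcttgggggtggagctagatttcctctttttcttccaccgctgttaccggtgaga
Both strands were searched for both motifs, whose letters were chosen after this sequence had been seen. GTGGGNG was not found in this window, and 28.1% of the 32851 promoters of the table hold it in their 250 upstream bases. GGGNGGG was found at bases 179 and 189, counted from the 5′ end, without overlap, and 44.8% of promoters hold it. Both matches read GGGCGGG, letters that also form the GC box of SP factors. The peaks are in mm9, and they were not placed on this GRCm38 sequence. For the same reason, distances to gene starts are not given. In GRCm38 the next protein-coding genes of the RefSeq table, in ascending coordinates, are Mrps18a after Vegfa, Spo11 after Bmp7 and Slco5a1 after Sulf1, so peaks of a window may lie nearer to, or within, another gene.

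WT1 peaks were dense at all 3 genes, in every list. The Vegfa window held 13 peaks in PBS podocytes, 16 at day 9, 3 at day 14, 8 in ADR glomeruli and 19 in PBS glomeruli. The Bmp7 window held 14, 22 and 3 in PBS, day 9 and day 14 podocytes, 11 in ADR glomeruli and 19 in PBS glomeruli. The Sulf1 window held 10, 17 and 5 in the same podocyte lists, 6 in ADR glomeruli and 11 in PBS glomeruli. The lists differ in length, with 23402, 31949 and 6694 peaks in PBS, day 9 and day 14 podocytes, 16634 in ADR glomeruli and 29082 in PBS glomeruli, and the shortest list had the fewest peaks at each gene. Over the 3 windows together there were 4.81, 7.14 and 1.43 peaks per 100 kb in PBS, day 9 and day 14 podocytes, 3.25 in ADR glomeruli and 6.36 in PBS glomeruli. The whole lists averaged 0.888, 1.21, 0.254, 0.631 and 1.10 per 100 kb in the same order, over a genome span of 2635.8 Mb. The 3 windows together were thus 5.14 to 5.89 times as dense. By gene and list this ratio ran from 3.17 (Sulf1, ADR glomeruli) to 7.83 (Vegfa, PBS glomeruli). The genome span includes sequence far from genes, and like windows around other genes were not counted. In glomeruli, fewer podocytes and less WT1 on the chromatin of each podocyte cannot be told apart.

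With every list cut to its 6694 strongest peaks by caller p-value, the order of the counts was different. Vegfa then had 6, 4 and 3 peaks in PBS, day 9 and day 14 podocytes, 2 in ADR glomeruli and 8 in PBS glomeruli. Bmp7 had 2, 5 and 3 in the podocyte lists and 5 in both ADR and PBS glomeruli. Sulf1 had 6, 6 and 5 in the podocyte lists, 3 in ADR glomeruli and 5 in PBS glomeruli. At equal list length the day 9 count exceeded the PBS podocyte count at Bmp7 and at neither of the other genes.

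**Figure D1:**
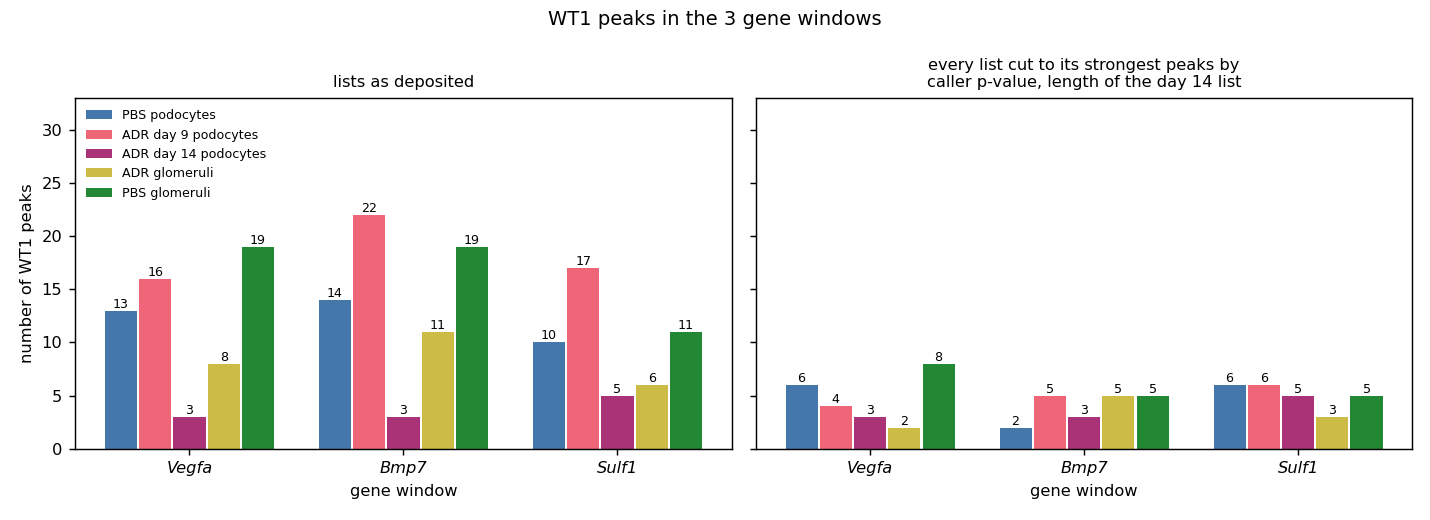
Number of WT1 peaks (y axis) in the windows of Vegfa, Bmp7 and Sulf1, 1 bar per peak list, for the lists as deposited (left) and cut to the length of the day 14 list, 6694 peaks (right). On the left the day 14 bars are lowest at 3, 3 and 5 peaks; on the right all bars lie between 2 and 8.

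Overlapping peaks of the 5 lists were joined into 62 sites, numbered along each window from its low coordinate, 20 at Vegfa, 24 at Bmp7 and 18 at Sulf1. A peak in all 5 lists was found at 10 of the 62 sites (16.1%, 95% Wilson interval 9.004 to 27.2), against 11.2% of the 41770 joined regions of the genome, a share inside that interval. These 10 were 3 sites at Vegfa, 3 at Bmp7 and 4 at Sulf1. At them the summits of the strongest peak of each list lay within 2 to 56 bp of one another (median 30 bp), against a median of 51 bp over all 4666 such regions. Another 14 sites (22.6%, interval 13.96 to 34.4) had a peak in 1 list alone, against 34.5% of joined regions, and their enrichment was 3.85- to 8.06-fold. Of these, 10 were at day 9 (16.1% of the 62 sites, against 16.1% of regions) and 4 in PBS glomeruli (6.45%, against 11.04% of regions). Fold enrichment is the authors' value of each peak over its background, from the peak caller. It is given with its percentile, the percent of peaks in the same list at or below it, and only peaks of 1 list were ranked against each other.

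**Figure D2:**
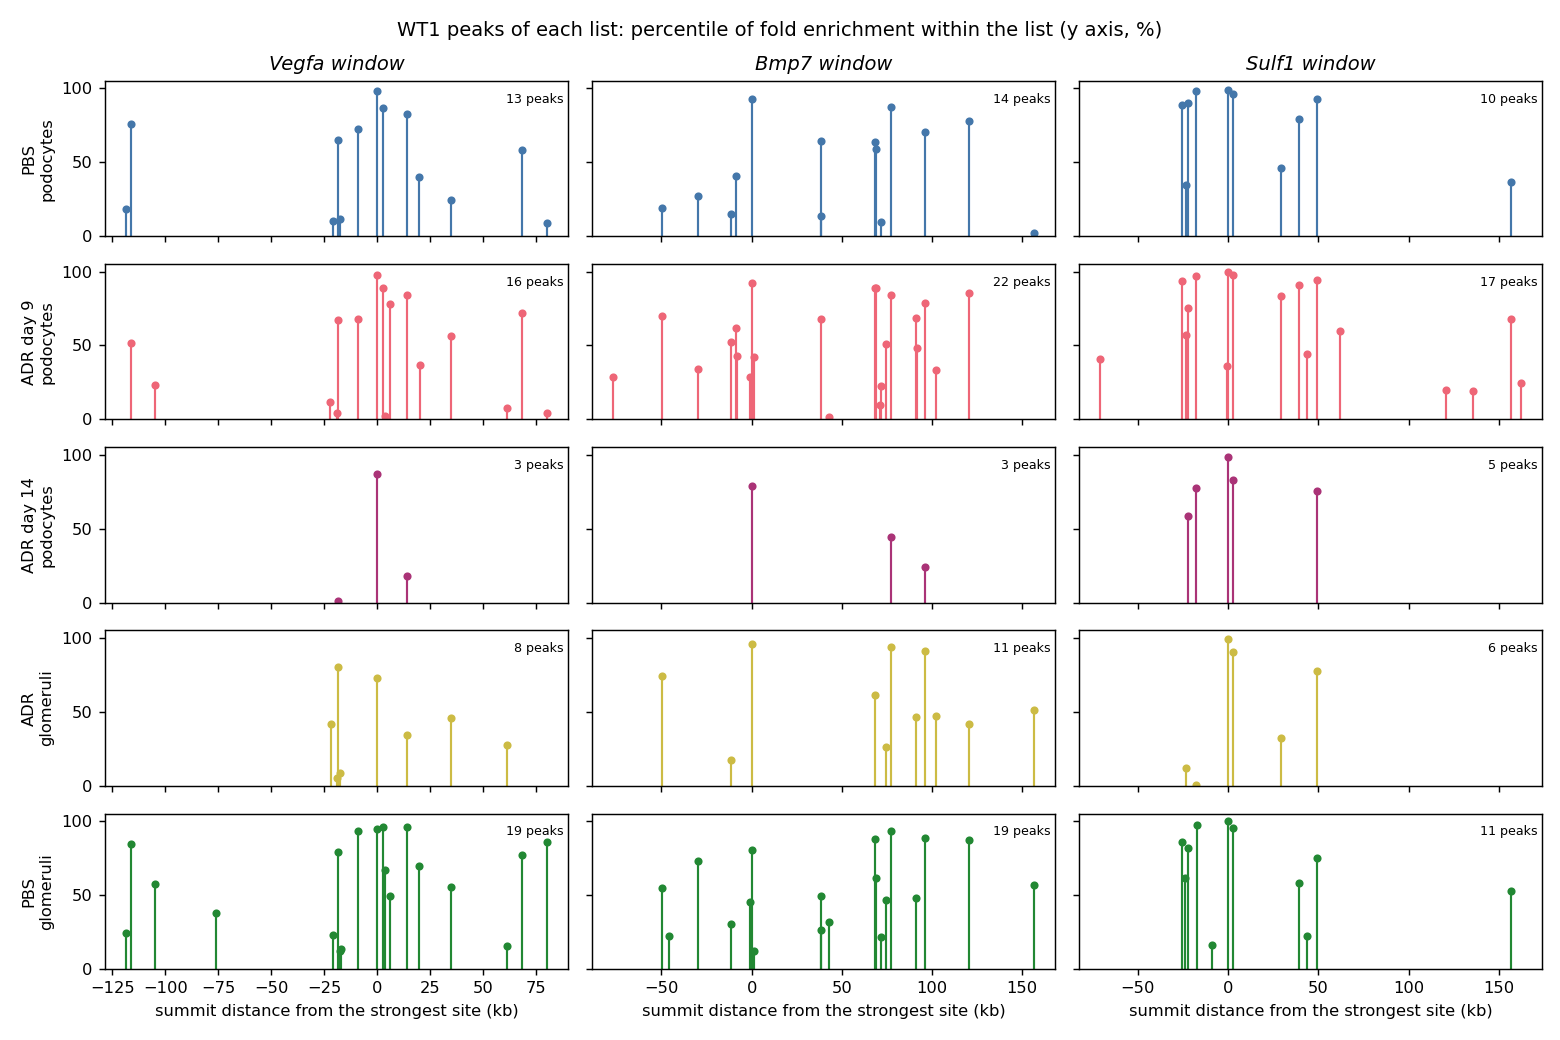
WT1 peaks along the 3 windows, 1 row per list. The x axis is the distance of the summit from that of the gene's strongest site in PBS podocytes (kb) and the y axis the percentile of fold enrichment within the list (%). At day 14 the strongest site and 2 to 4 others remain visible at each gene; in the Sulf1 column the peak at distance 0 is at 98.7% or higher in all 5 lists.

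At Vegfa, a single site stood above the others in the podocyte lists, and the glomerular lists ranked the sites differently. Vegfa site 11 (46186294 to 46187152 on chromosome 17) had 35.9-fold enrichment in PBS podocytes (98.3rd percentile), 43.9-fold at day 9 (97.7th) and 11.99-fold at day 14 (86.7th). In glomeruli it had 10.0-fold with ADR (72.9th) and 20.8-fold with PBS (94.6th). It was 2.41, 2.20 and 2.69 times the next Vegfa peak in PBS, day 9 and day 14 podocytes, while it ranked 2nd of the ADR glomerular and 3rd of the PBS glomerular sites. Ranked by caller p-value it led the gene in all 5 lists.

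The other Vegfa sites common to all lists lay on either side of site 11. Site 15 (46200217 to 46201433), 14.2 kb from it, had 12.6-, 16.1- and 4.46-fold enrichment in PBS, day 9 and day 14 podocytes, 6.17-fold in ADR glomeruli and 22.2-fold in PBS glomeruli. Its percentile was 34.3 in ADR glomeruli and 95.9 in PBS glomeruli. Site 7 (46167350 to 46168358) had 8.09-, 9.46- and 2.85-fold in the podocyte lists, 11.6-fold in ADR glomeruli and 12.6-fold in PBS glomeruli. By enrichment, site 7 was thus the strongest Vegfa peak of ADR glomeruli (80.0th percentile) and near the bottom of the day 14 list (percentile 1.2). By caller p-value its percentile at day 14 was 24.7.

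Of the Vegfa sites, 8 had a peak in both PBS lists and in neither ADR glomeruli nor day 14 podocytes, which was 40% of 20 (interval 21.9 to 61.3), against 15.2% of joined regions genome-wide. These 2 lists are the shortest of the 5. The share was 16.7% at Bmp7 and 16.7% at Sulf1. The difference was not tested, and neighbouring sites share each list's depth and background, which the interval does not cover. The strongest of the 8 Vegfa sites was site 12 (46188397 to 46189676), with 14.9- and 19.9-fold enrichment in PBS and day 9 podocytes. In PBS glomeruli it had 22.4-fold and was the strongest Vegfa peak (96.1st percentile). Site 10 (46177456 to 46178009) had 9.51-, 9.66- and 19.6-fold in PBS podocytes, day 9 podocytes and PBS glomeruli. Both lay in the strongest 10% of the PBS glomerular list by enrichment. Of these strongest peaks, 8 were at the 3 genes and these 2 had no ADR glomerular peak, against 22.0% of the strongest 10% of the list.

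The remaining 6 of these Vegfa sites had lower enrichment than site 12 in each list that held them. Site 2 (46070406 to 46070930) had 10.4- and 6.95-fold in PBS and day 9 podocytes and 14.6-fold in PBS glomeruli. Site 19 (46254534 to 46255055) had 7.18-, 10.7- and 12.2-fold in these lists. Site 20 (46266695 to 46267053) had 3.48-, 3.25- and 14.9-fold. Its percentile by enrichment was 9.24 in PBS podocytes, 4.29 at day 9 and 85.5 in PBS glomeruli. By caller p-value these percentiles were 48.2, 37.5 and 86.2, so its place among the weakest podocyte peaks held by enrichment only. Site 16 (46206333 to 46206870) had 5.54-, 5.61- and 10.4-fold. Sites 1 (46068053 to 46068404) and 6 (46165642 to 46166067) also lacked a day 9 peak, with 4.18- and 3.58-fold in PBS podocytes and 5.43- and 5.30-fold in PBS glomeruli.

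A single Vegfa site, site 5 (46164485 to 46164864), had peaks after ADR in both models and in neither PBS list. Its enrichment was 4.02-fold at day 9 (11.9th percentile) and 6.62-fold in ADR glomeruli (41.8th percentile), both under the median of their list. Over the 3 genes, 2 of 62 sites had this pattern (3.23%, interval 0.889 to 11.02), against 1.96% of joined regions. The next site along the window, site 6, had peaks in the PBS lists alone and was also weak. The 8 Vegfa sites not named individually had a highest enrichment of 4.64- to 13.0-fold.

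**Figure D3:**
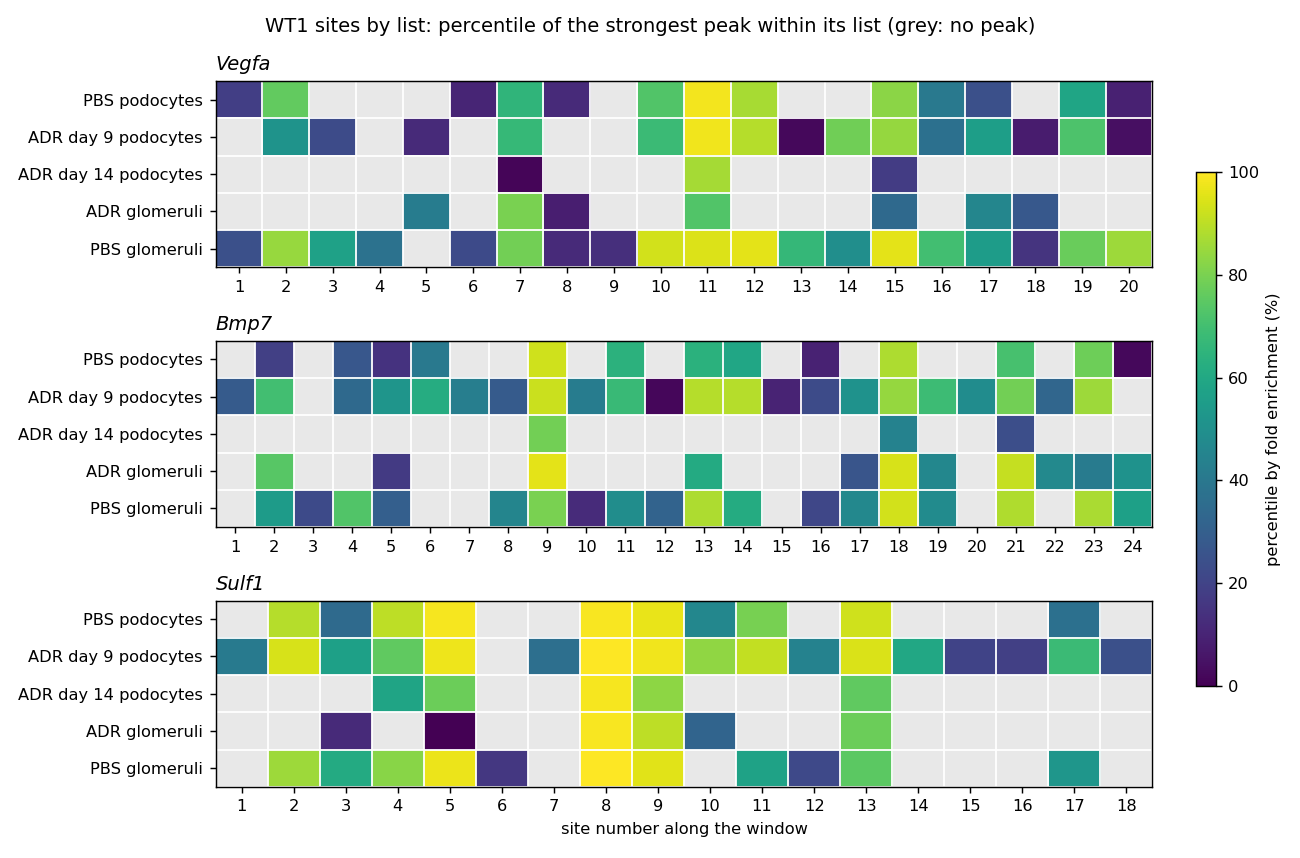
All 62 sites (x axis, numbered along each window) in the 5 lists (rows), coloured by the percentile of the strongest peak within its own list (%); grey means no peak. Vegfa sites 7, 11 and 15, Bmp7 sites 9, 18 and 21 and Sulf1 sites 5, 8, 9 and 13 are filled in all rows.

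At Bmp7, the strongest site led the next by less than at Vegfa in the podocyte lists. Bmp7 site 9 (172688448 to 172689439 on chromosome 2) had 20.03-fold enrichment in PBS podocytes (92.8th percentile), 24.2-fold at day 9 (92nd) and 9.65-fold at day 14 (78.7th). In glomeruli it had 21.0-fold with ADR (95.8th) and 12.9-fold with PBS (80.1st). By enrichment it led the gene in all podocyte lists and in ADR glomeruli and ranked 5th in PBS glomeruli. By caller p-value its percentile in PBS glomeruli was 91.2, below site 18 (94.5) alone. Its summits in the 5 lists lay within 2 bp of each other. Its lead over the next Bmp7 peak was 1.31, 1.21 and 1.62 times in PBS, day 9 and day 14 podocytes and 1.11 times in ADR glomeruli.

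The other Bmp7 sites of all lists stood 77.2 and 96.2 kb from site 9. Site 18 (172765420 to 172766436) had 15.3-, 16.02- and 5.95-fold in PBS, day 9 and day 14 podocytes, 18.9-fold in ADR glomeruli and 19.4-fold in PBS glomeruli. Site 21 (172784793 to 172785451) had 9.11-, 13.1- and 4.79-fold in the podocyte lists, 16.3-fold in ADR glomeruli and 16.3-fold in PBS glomeruli. Both were near the same percentile in the 2 glomerular lists, at 94.1 with ADR and 93.1 with PBS for site 18 and 91.1 and 88.3 for site 21. At day 14 they stood at 44.2 and 23.8 by enrichment, and at 84.0 and 18.1 by caller p-value.

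A group of 5 sites, 13 to 17, lay 68.2 to 74.5 kb from Bmp7 site 9. At day 9, sites 13 (172756687 to 172757396) and 14 (172757500 to 172758198) ranked 2nd and 3rd of the gene with 19.95- and 19.9-fold enrichment (percentiles 88.8 and 88.7). In PBS podocytes they had 7.88- and 7.28-fold (percentiles 63.9 and 59.2). Site 13 also had peaks in ADR glomeruli (8.31-fold) and PBS glomeruli (15.9-fold), and site 14 in PBS but not ADR glomeruli (8.92-fold). Neither had a day 14 peak.

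Of the 24 Bmp7 sites, 4 had a peak in both PBS lists and in neither ADR glomeruli nor day 14 podocytes (sites 4, 11, 14 and 16), which was 16.7%, against 15.2% of joined regions. Sites 4 (172658723 to 172659097), 11 (172726835 to 172727731) and 16 (172760406 to 172760836) had 4.76-, 7.99- and 3.49-fold enrichment in PBS podocytes. They had 5.49-, 9.62- and 4.72-fold at day 9 and 11.03-, 7.38- and 5.24-fold in PBS glomeruli. Site 22 (172790750 to 172791093) was the 1 Bmp7 site with peaks after ADR in both models and no PBS peak, at 5.38-fold at day 9 (percentile 33.1) and 7.01-fold in ADR glomeruli (percentile 47.1). Another 4 sites had a day 9 peak alone (16.7%, against 16.1% of regions), and the 16 sites outside the naming rule, which include site 13, had a highest enrichment of 3.85- to 19.95-fold.

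At Sulf1, the same site was the strongest in every list. Sulf1 site 8 (12705277 to 12706148 on chromosome 1) had 43.5-fold enrichment in PBS podocytes (percentile 99.04), 89.0-fold at day 9 (99.9th) and 25.9-fold at day 14 (98.7th). In glomeruli it had 29.1-fold with ADR (percentile 99.01) and 31.9-fold with PBS (99.7th). It was the strongest Sulf1 peak of all 5 lists, by enrichment and by caller p-value. It ranked 226th, 47th and 85th in the PBS, day 9 and day 14 podocyte lists, 165th in ADR glomeruli and 79th in PBS glomeruli. Its lead over the next Sulf1 peak was 1.15, 1.99 and 2.42 times in PBS, day 9 and day 14 podocytes. In glomeruli the lead was 1.86 times with ADR and 1.34 times with PBS. The PBS podocyte lead was thus smaller than the 1.31 times of Bmp7 site 9.

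Site 9 (12708045 to 12709082), 2.64 kb from site 8, had 27.8-, 44.7- and 10.7-fold in PBS, day 9 and day 14 podocytes, 15.6-fold in ADR glomeruli and 21.8-fold in PBS glomeruli. Site 13 (12754298 to 12755271) had 20.1-, 29.1- and 9.0-fold in the podocyte lists, 11.02-fold in ADR glomeruli and 11.6-fold in PBS glomeruli. Both kept a high percentile in the glomerular lists, at 90.1 with ADR and 95.5 with PBS for site 9 and at 77.7 and 74.95 for site 13.

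Sulf1 site 5 (12687717 to 12688529) did not. It had 37.8-, 41.1- and 9.43-fold enrichment in PBS, day 9 and day 14 podocytes, where it ranked 2nd or 3rd of the gene, and 3.25-fold in ADR glomeruli against 23.8-fold in PBS glomeruli. Its percentile was 0.204 in ADR glomeruli and 97.2 in PBS glomeruli. The neighbouring sites 2 and 4 had no ADR glomerular peak, and site 3 had one at percentile 11.8. Site 2 (12679939 to 12680533) had 16.2- and 27.8-fold in PBS and day 9 podocytes and 14.9-fold in PBS glomeruli. Site 4 (12683196 to 12683923) had 17.0-, 11.8- and 6.89-fold in the podocyte lists and 13.6-fold in PBS glomeruli. Sites 2 to 5, grouped after their values were seen, were thus weak or without a peak in ADR glomeruli. Of all PBS glomerular peaks, 53.5% had no ADR glomerular peak. A day 14 peak was present at 2 of the 4 sites, and 73.0% of all PBS podocyte peaks had none.

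Of the 18 Sulf1 sites, 3 had peaks in both PBS lists and in neither ADR glomeruli nor day 14 podocytes, namely site 2, site 11 (12744614 to 12745108) and site 17 (12862149 to 12862703), which was 16.7%, against 15.2% of joined regions. Site 11 had 11.4-fold in PBS podocytes, 22.6-fold at day 9 and 8.40-fold in PBS glomeruli. Site 17 had 5.34-, 9.70- and 7.75-fold. At day 9, sites 2 and 11 lay in the strongest 10% of the list, and they were the 2 of 8 such peaks at the 3 genes without a day 14 peak, against 7.86% of the strongest 10%. No Sulf1 site had ADR peaks in both models without a PBS peak. A day 9 peak alone was found at 6 sites, 33.3% of 18 (interval 16.3 to 56.3), against 16.1% of joined regions genome-wide and none of the 20 Vegfa sites (interval 0 to 16.1). By caller p-value these 6 peaks stood at percentiles 7.64 to 44.4, all under the median of the day 9 list, which is the longest list. The difference between the genes was not tested. The 11 Sulf1 sites outside the naming rule, which include site 4, had a highest enrichment of 4.53- to 17.0-fold.

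Binding in the whole glomerulus after injury was addressed by setting ADR glomeruli against PBS glomeruli. Of the 25 ADR peaks at the 3 genes, 3 had no PBS peak, namely Vegfa site 5, Bmp7 site 22 and Sulf1 site 10, against 17.4% of the whole list. Of the 49 PBS peaks, 28 had no ADR peak, against 53.5% of the list, so that 42.9% were shared (interval 30.0 to 56.7). By gene, 13 of 19 PBS peaks at Vegfa, 9 of 19 at Bmp7 and 6 of 11 at Sulf1 had no ADR peak. Over the 21 sites with a peak in both lists, Spearman's rho between ADR and PBS enrichment was 0.455, against 0.512 over 13232 regions genome-wide. Sites share each list's depth and background, so rho is descriptive.

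For the purified cell, day 9 podocytes were set against PBS podocytes. Of the 55 day 9 peaks, 22 had no PBS peak, against 36.0% of the list, with 5 of 16 at Vegfa, 10 of 22 at Bmp7 and 7 of 17 at Sulf1. Of the 37 PBS peaks, 4 had no day 9 peak, against 13.0% of the list, and these were at Vegfa sites 1, 6 and 8 and Bmp7 site 24. All had at most 4.18-fold enrichment in PBS podocytes. All 10 PBS peaks at Sulf1 had a day 9 peak. Spearman's rho over the 32 common sites was 0.843, against 0.812 over 20043 regions.

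The comparisons with day 14 concerned the later stage. All 11 day 14 peaks at the 3 genes had a peak in PBS and in day 9 podocytes (interval 74.1 to 100), where 3.87% and 0.284% of the day 14 list lacked one. Of the 37 PBS podocyte peaks, 26 had no day 14 peak, against 73.0% of the list, and of the 55 day 9 peaks 44 had none, against 79.5%. At Sulf1, 5 of 10 PBS peaks had a day 14 peak (50%, interval 23.7 to 76.3), at Vegfa 3 of 13 (23.1%, 8.18 to 50.3) and at Bmp7 3 of 14 (21.4%, 7.57 to 47.6), intervals that overlap. Both comparisons use the same day 14 list.

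Without injury, podocytes were set against glomeruli, and here strain and preparation differed together. Of the 37 podocyte peaks, 2 had no glomerular peak, at Bmp7 site 6 and Sulf1 site 10, against 19.3% of the list. The shared part was 94.6% (interval 82.3 to 98.5), against 80.7% of the whole list. The median enrichment of the 37 peaks was 7.88-fold, against 6.30-fold over the list. In the whole list, shared peaks had a median of 7.00-fold and unshared peaks 5.03-fold. Whether peak strength is behind the higher share at these genes was not tested. Of the 49 glomerular peaks, 14 had no podocyte peak, against 33.6% of the list. Spearman's rho over the 34 common sites was 0.767, against 0.608 over 18612 regions. In the other directions of the comparisons above, the whole-list share lay inside the interval of the 3 genes.

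**Figure D4:**
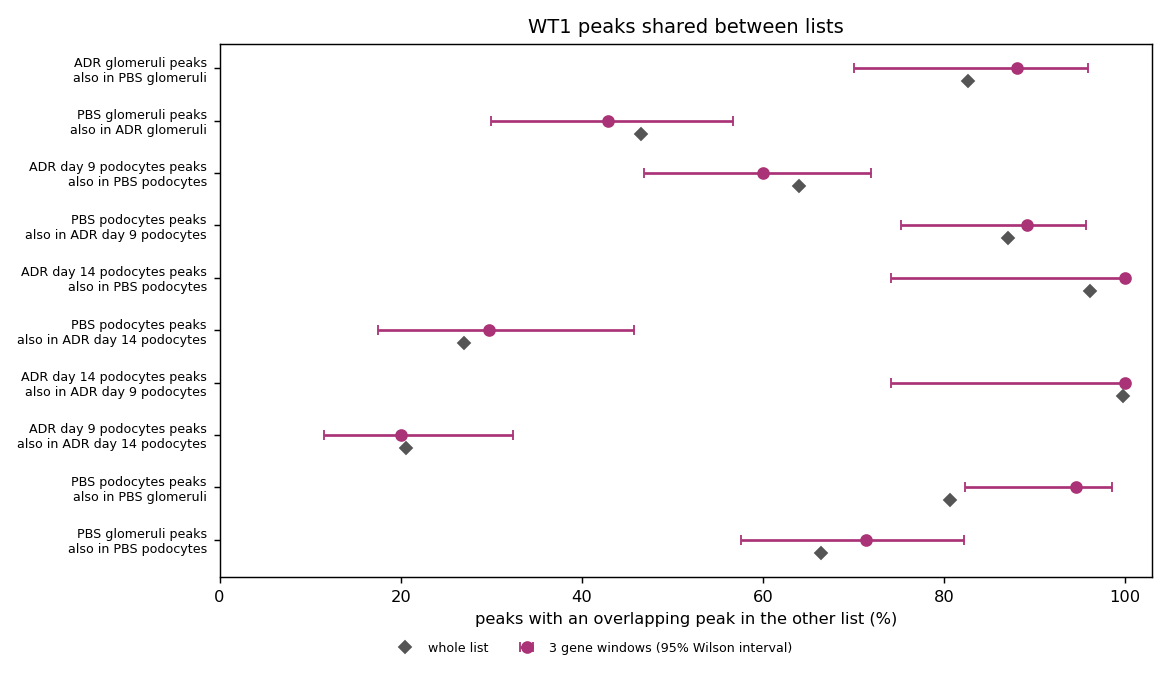
Percent of peaks with an overlapping peak in the other list (x axis), for each comparison in both directions (rows). Circles are the 3 gene windows with 95% Wilson intervals, which cover counting error only, and diamonds the whole list; the diamond lies outside the interval for PBS podocyte peaks also in PBS glomeruli (94.6% against 80.7%).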

How the data were processed

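WT1 ChIP-seq (antibody sc-192) was made from chromatin fixed with 1% formaldehyde for 5 min and sheared to 200 to 600 bp, per the labels' protocols. The submitters' processing notes name Bowtie 0.12.7, MACS2 and mm9, without roles. Which control, duplicate rule, cutoff and pooling applied is not given in the sources used here, and read depth per library is unknown. The authors deposited 1 peak list per group. Fold enrichment (a ratio over background), −log10 p and −log10 q are the deposited values of the caller. The deposited integer score is about 10 times the −log10 q and was not used.

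An overlap of 1 bp or more made a peak shared. The 5 lists were joined into sites, and coordinates are 1-based. Named were the strongest site of each gene, sites in all 5 lists or in the strongest 10% of a list, sites with ADR peaks in both models and no PBS peak, and sites with peaks in both PBS lists but in neither ADR glomeruli nor day 14 podocytes, whatever day 9 held; Bmp7 site 13, Sulf1 sites 3, 4 and 10 and the unshared sites were named after their values were seen. The windows and lists were chosen with earlier results of these data known. Pathway gene lists were not described, for want of an mm9 annotation. No test between groups was possible. Overlap was checked on copies of the lists from which randomly picked peaks had been moved away, and joining and percentiles on small made-up examples. Software was matplotlib 3.10.9, scipy 1.17.1, pandas 2.3.3 and numpy 2.4.6 under Python 3.11.15. Alternatives are given under the closing section.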

Additional observations from a re-analysis of the deposited data

Results flagged for a closer look

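At all 3 genes the number of peaks was below the PBS number in ADR glomeruli and above it in day 9 podocytes. At day 14 it was below it, at 0.231 times the PBS podocyte count for Vegfa, 0.214 times for Bmp7 and 0.5 times for Sulf1. At Vegfa the ADR count was 0.421 times the PBS count in glomeruli and 1.23 times at day 9 in podocytes. At Bmp7 these ratios were 0.579 and 1.57, and at Sulf1 0.545 and 1.70. The whole lists gave 0.572 and 1.37. With every list trimmed to 6694 peaks, the opposite directions were present at none of the 3 genes. ADR glomeruli then had 2, 5 and 3 peaks at Vegfa, Bmp7 and Sulf1, against 8, 5 and 5 in PBS glomeruli. Day 9 podocytes had 4, 5 and 6, against 6, 2 and 6 in PBS podocytes. The difference was not tested, as there is a single list for each group. The labels give no day for the glomeruli.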

How the results depend on the processing

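No paired analysis was possible because the 5 groups have a single deposited list each, and no replicate could be left out. Of 76 alternative values, 49 stayed close to the value reported and 27 moved. A share or rank moved when it left its 95% binomial interval, which is narrow for ranks in lists of this length, and a count when it changed by over 1.5 times. With both lists filtered to a −log10 q of 10 or more, 100% of ADR and 28.6% of PBS glomerular peaks were shared. The same filter gave 96.4% of PBS podocyte peaks shared with day 9. Lists trimmed to equal length gave 74.4% of day 9 peaks shared with PBS podocytes, 71.4% of PBS podocyte peaks shared with day 14 and 60% of day 9 peaks shared with day 14. Requiring 50% overlap of the shorter peak, or summits within 200 bp, moved no share beyond its interval. With every list trimmed to the shortest, peaks at the 3 genes numbered 14 in PBS podocytes, 15 at day 9, 10 in ADR glomeruli and 18 in PBS glomeruli. The stricter q left 10 in ADR glomeruli and 6 sites in all 5 lists. Ranked by caller p-value, the Vegfa, Bmp7 and Sulf1 peaks that were strongest by enrichment stood at percentiles 99.8, 98.9 and 98.7 in PBS podocytes, 99.5, 98.6 and 99.7 at day 9, and 96.2, 96.0 and 97.8 at day 14. In glomeruli they stood at 77.2, 97.7 and 98.7 with ADR and 94.8, 94.5 and 99.7 with PBS, where the strongest Vegfa peak by p-value was another, at site 11 (81.6 with ADR and 97.9 with PBS). The cause of these shifts was not tested, except that trimming and the stricter q leave fewer peaks by construction. Read depth is unknown and limits every absence of a peak.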

Other observations

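Enrichment and caller p-value ranked peaks differently at all 3 genes. Among peaks with a −log10 p from 10 to 20, the median enrichment at Vegfa was 4.18-, 3.65- and 3.66-fold in PBS, day 9 and day 14 podocytes (5, 5 and 2 peaks), against 5.46-, 5.90- and 5.72-fold in the whole lists. At Bmp7 it was 4.49-, 5.25- and 4.79-fold (4, 6 and 1 peaks) and at Sulf1 5.34-, 6.05- and 6.89-fold (3, 4 and 1 peaks). In PBS glomeruli the median was 7.43-fold at Vegfa (3 peaks), 7.15-fold at Bmp7 (11 peaks) and 8.31-fold at Sulf1 (2 peaks), against 7.14-fold in the list. In ADR glomeruli it was 6.92-fold at Vegfa (1 peak) and 7.17-fold at Bmp7 (6 peaks), against 7.87-fold in the list, and Sulf1 had no such peak. At day 14, Vegfa site 11 stood at percentile 86.7 by enrichment and 96.2 by p-value, Bmp7 site 9 at 78.7 and 96.0, and Sulf1 site 8 at 98.7 and 97.8.

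The windows had open ground as well as clusters. No list had a peak between 46110615 and 46164485 at Vegfa, 172690333 and 172726835 at Bmp7, and 12767791 and 12826367 at Sulf1, gaps of 53.9, 36.5 and 58.6 kb. The nearest peaks outside the windows lay 19.9 kb above that of Vegfa (4.09-fold in PBS podocytes), 2.56 kb above that of Bmp7 (7.17-fold in PBS glomeruli) and 185 kb below that of Sulf1 (11.4-fold in PBS glomeruli).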
